A study of Rattus norvegicus with 36 samples.

Results

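The comparison described here is Plus A against the mimic control (MC) in normoxia. Plus A is a mimic of the microRNA miR-125b with 1 adenosine added at its 3′ end. Its members are the 11222 genes whose mean of normalised counts was at least 100 in the Plus A group, the MC group or both, of 20730 genes listed in the first of the 2 blocks of the deposited table. For each gene the ratio of the Plus A mean to the MC mean was taken. Only the authors' mean was used for MC in normoxia, so the ratio carries no error for the control and no test was possible. The genes nearest to the minimum had a larger mean of 100.03 inside and 99.858 outside it.

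The RNA came from H9C2, a rat line of cardiac myoblasts, which are proliferating muscle precursors that can fuse and switch on sarcomere genes. All groups received 25 nmol/L of a mimic for 24 h. In normoxia the cells then had fresh medium for 24 h, and in hypoxia they had serum-free, low-glucose medium with almost no oxygen for 24 h, so oxygen and medium cannot be told apart. The groups used were Plus A, MC and miR-125b in normoxia and Plus A and MC in hypoxia, with 3 libraries each, of 36 libraries in 12 groups in the series, and the labels do not say that replicates were separate cultures.

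A microRNA guides an Argonaute protein to messenger RNAs that pair with its seed, bases 2 to 8 from the 5′ end, and the bound messenger is usually degraded or less translated. Bases at the 3′ end mostly bear on stability and turnover, and 3′ isomiRs such as Plus A keep the canonical seed. miR-125b is abundant in heart and is known as a brake on the p53 network and on several pro-apoptotic genes. Both sequences are printed to show that the mimic differs from miR-125b outside the seed. Capitals at bases 2 to 8 mark the seed, and the last capital marks the added base.
miR-125b: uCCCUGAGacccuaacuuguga
Plus A: uCCCUGAGacccuaacuugugaA
The first is the mature rat sequence of RefSeq, 22 bases long, from the *Mir125b2* locus at chr11:29732588-29732609 on the plus strand of GRCr8. The second is that sequence with the base added as the labels and the study's methods give it, 23 bases long.

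The Plus A libraries held 28672894 to 30101057 counts, and the other libraries used held 28737088 to 30908069. Summed over all listed genes, the Plus A mean was 1.053 times the MC mean. A second block of the same table listed 337 further genes, all with a ratio past 1.5-fold lower, of which 157 had no gene name and 334 in all had none or a provisional or microRNA name. It held 180 genes that would pass the minimum and no gene of the lists below. All 7 fibroblast markers and all 7 skeletal myoblast markers were listed, and 5 and 6 of them reached the minimum. The summed markers ran from 1083414 to 1166355 per Plus A library against 660896 in MC for fibroblasts, of which *Col1a1* was the larger part, and from 19483 to 23010 against 25451 for myoblasts. The cardiomyocyte list had 1 of 8 markers, *Pln*, above the minimum, and summed to 214 to 257 in the Plus A libraries against 333 in MC. Markers of endothelial cells summed to 37.9 to 41.3 against 48.4 in MC, of leukocytes to 67.0 to 98.8 against 111, and of epithelial cells to 6.99 to 12.4 against 6.83, with no marker at the minimum. No listed marker was at 0 in both group means. *Pecam1*, *Kdr*, *Adgre1* and *Krt19* were not listed.

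Plus A replicate 1 stood apart from the other Plus A libraries. Across the 11222 genes, Pearson's r of its log2 values was 0.9857 with replicate 2 and 0.986 with replicate 3, whereas replicates 2 and 3 gave 0.9913 with each other. Its r with miR-125b replicates 2 and 3 in normoxia was 0.99 and 0.9914. In turn, miR-125b replicate 1 gave 0.9905 and 0.9896 with Plus A replicates 2 and 3, against 0.9853 and 0.9858 with its own group. These are correlations across genes, which are not independent replicates. An exchange of the libraries numbered 1 between Plus A and miR-125b would give such correlations, and every Plus A mean here would then hold 1 miR-125b library. This was not tested, and labels were used as deposited. Some values are given without replicate 1 below. *Cav1*, which codes for the coat protein of caveolae, showed the split best, with 7824 normalised counts in Plus A replicate 1 and 2937 and 2953 in replicates 2 and 3. The miR-125b libraries held 3050, 8327 and 7759, and the MC mean was 7325. The ratio of *Cav1* was thus 1.60-fold lower with all Plus A libraries, 2.49-fold lower without replicate 1, and 1.36-fold lower without replicate 2 or without replicate 3. In all, 354 genes differed by at least 1.5-fold between replicate 1 and the mean log2 value of replicates 2 and 3.

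**Figure D1:**
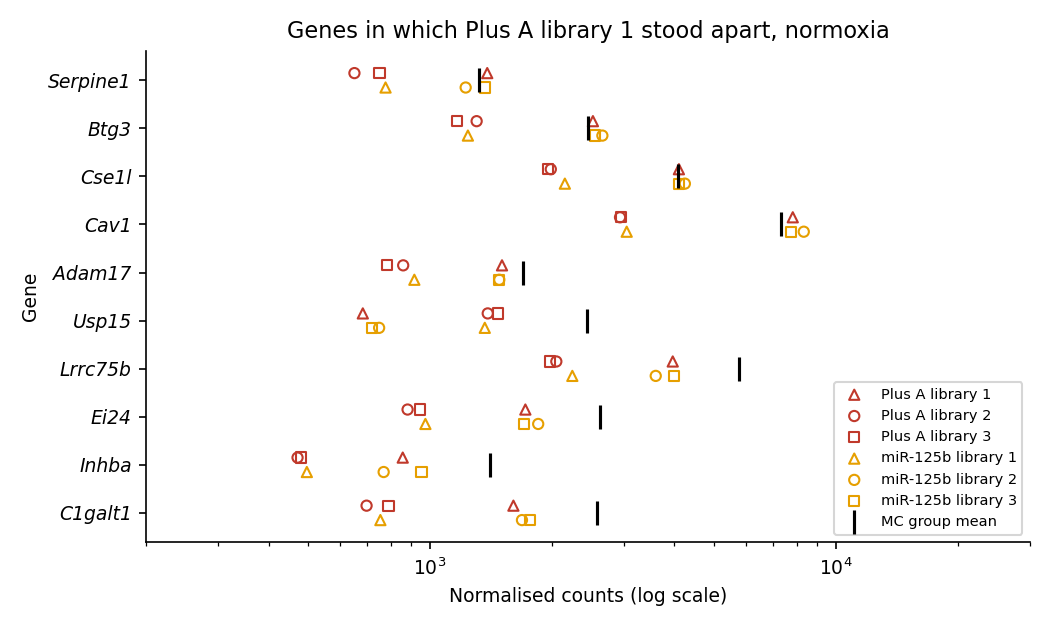
Normalised counts on a log axis of the 10 genes with a mean of at least 1000 in which Plus A library 1 lay farthest from Plus A libraries 2 and 3. Red symbols are the Plus A libraries, orange symbols the miR-125b libraries in normoxia, and the black line is the authors' MC mean; in each gene Plus A library 1 sits beside miR-125b libraries 2 and 3.

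Most genes differed little between the groups. The median log2 ratio was -0.00017, and 9166 of 11222 genes (81.7%) lay within 1.5-fold. In Plus A, 869 genes (7.74%) were at least 1.5-fold higher and 1187 (10.6%) at least 1.5-fold lower, so 42.3% of the genes past this fold were higher. With both means scaled to the same total the numbers were 669 and 1502, which put 30.8% on the higher side. With the second block of the table added, 1367 of 11402 genes (12%) were lower. At 2-fold 221 genes were higher and 357 lower, and at 4-fold 26 and 39.

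The spread within Plus A was small beside these ratios. The SD of the log2 values over the 3 libraries had a median of 0.095, and 95% of genes had at most 0.32. All 3 libraries lay above the MC mean in 844 of the 869 higher genes, and below it in 1176 of the 1187 lower ones. These genes were picked by the mean of the same 3 libraries, so with this small spread most had to lie on that side. The spread within MC is not known here. Without replicate 1 the counts were 976 higher and 1378 lower, and without replicates 2 or 3 they were 830 and 849 higher and 1106 and 1171 lower. A gene that reached the minimum through a single group had to differ, though not by 1.5-fold. Of 231 genes that did so through Plus A, 147 were at least 1.5-fold higher. Of 285 through MC, 174 were at least 1.5-fold lower. Lower genes were longer, with a median annotated length of 2671 bases against 2239 for higher genes and 2433 for all members, and the part of length in the ratios was not tested.

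**Figure D2:**
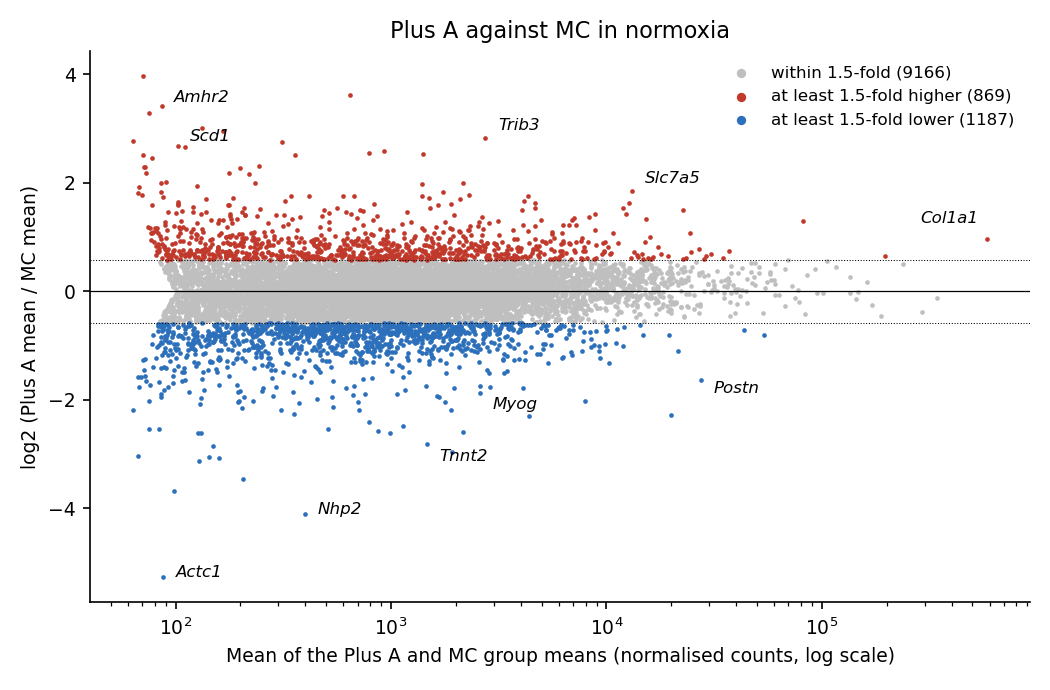
The log2 ratio of the Plus A mean to the MC mean in normoxia against the average of both means in normalised counts on a log axis, for 11222 genes. Red and blue points are the 869 genes at least 1.5-fold higher and the 1187 at least 1.5-fold lower, and the dotted lines mark 1.5-fold.

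The 12 named genes with the largest reductions were taken only if all 3 Plus A libraries lay below the MC mean. Of these 12, 3 were muscle genes. *Actc1*, the cardiac α-actin of embryonic and cardiac muscle (chromosome 3, 105507403 to 105512939, minus strand, in the coordinates of the count tables, whose build is not given in the sources used here), had 7.10, 4.13 and 2.00 normalised counts in the Plus A libraries against an MC mean of 170. Its ratio was 38.7-fold lower and rests on a few reads per Plus A library. *Tnnt2*, the cardiac troponin T that ties the troponin complex to tropomyosin (chromosome 13, 52662996 to 52680990, plus strand), had 283, 360 and 454 against 2571, which was 7.03-fold lower. *Mylpf*, a regulatory light chain of fast muscle myosin, had 262, 283 and 289 against 1703. All Plus A libraries of these 3 genes were far below the MC mean.

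The other 9 were not from one of the muscle lists. *Nhp2*, a protein of the box H/ACA particles that modify ribosomal RNA, had 38.6, 42.3 and 51.9 against 758, or 17.1-fold lower. *F13a1*, the catalytic chain of clotting factor XIII, had 44.6, 30.96 and 27.9 against 379. *Tmem123*, a membrane receptor linked to oncotic cell death, had 470, 376 and 467 against 3421. These 3 were low in every Plus A library. *Eif4e3*, a cap-binding translation factor, was 6.13-fold lower, and *Ndst2*, an enzyme of heparan sulphate sulphation, 8.20-fold lower. *Fam131b* was 7.26-fold lower, *Fam50a* 8.32-fold and *Ankra2* 12.8-fold. *Brms1*, a part of a histone deacetylase complex, had 63.9, 15.5 and 21.95 against 284, and its ratio of 8.42-fold lower became 15.2-fold without replicate 1.

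The 12 largest increases, taken only with all 3 Plus A libraries above the MC mean, were mostly in genes with a low MC mean. *Amhr2*, the receptor of anti-Müllerian hormone, had 163, 161 and 149 against 14.7, which was 10.7-fold higher. *Trib3*, a pseudokinase induced by the integrated stress response (chromosome 3, 147813473 to 147819571, minus strand, in the same coordinates), had 4493, 4842 and 5090 against 678, or 7.10-fold higher. *Slc6a9*, a glycine transporter, had 2319, 2530 and 2393 against 417. *Trib3* and *Slc6a9* were the only genes of these 12 with an MC mean above 400. *Scd1*, which puts the double bond into oleate, had 156, 175 and 201 against 27.6. *Col20a1*, a collagen, had 562, 585 and 687 against 106. *Gzmbl3*, of the granzyme family of proteases, had 334, 249 and 302 against 38.0, and reads shared with near-identical family members could not be told apart. *Tmem116* was 6.86-fold higher, *Plg*, the precursor of plasmin, 5.73-fold, and *Hcn3*, a pacemaker channel, 4.93-fold. *Cd151*, a tetraspanin, had 77.1, 311 and 319 against 29.1.

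For 2 of the 12, a single library carried the ratio. *Atp5f1*, a subunit of ATP synthase, had 83.2, 1449 and 102 against 80.6, and its 6.76-fold ratio became 1.15-fold without replicate 2. *Tbcb*, a tubulin chaperone, had 52.8, 50.6 and 469 against 30.1, and its 6.34-fold ratio became 1.72-fold without replicate 3.

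**Figure D3:**
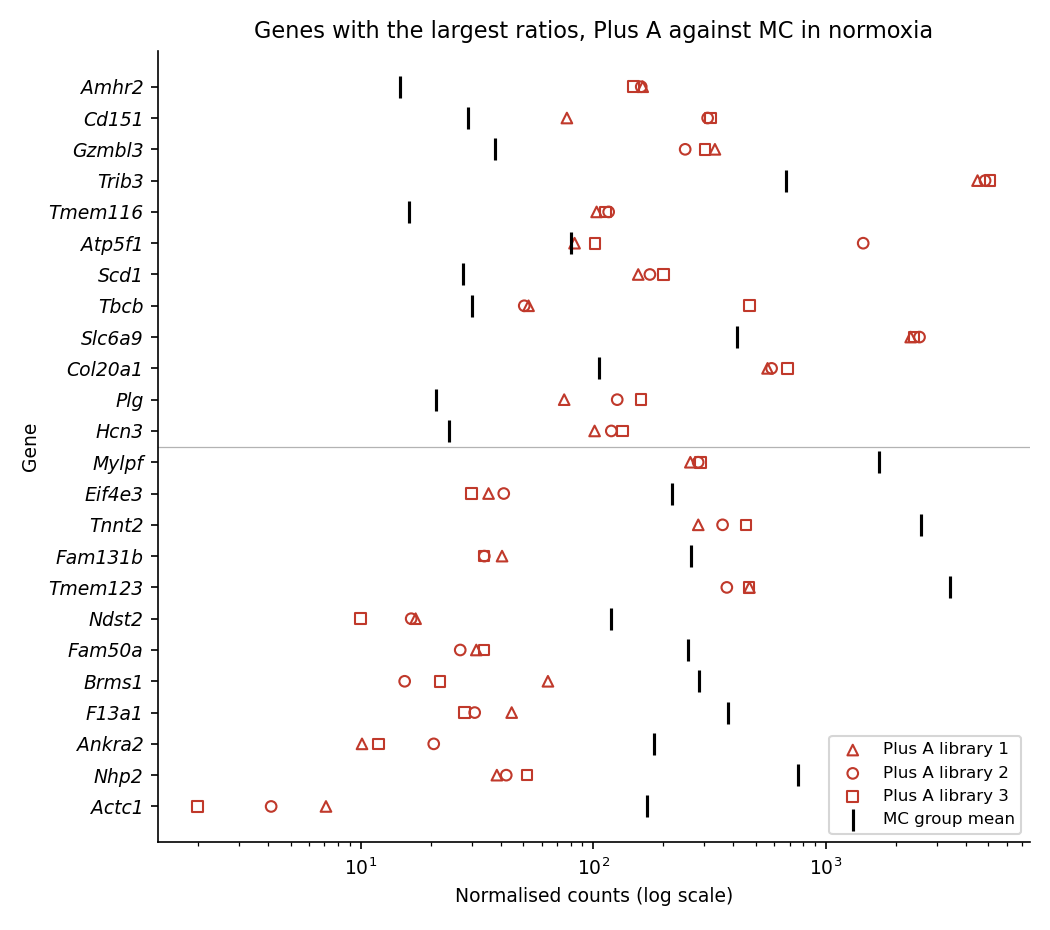
Normalised counts on a log axis of the 12 named genes with the largest increases (top) and the 12 with the largest reductions (bottom) whose 3 Plus A libraries lay on 1 side of MC. Red symbols are the Plus A libraries and the black line is the authors' MC mean; *Atp5f1* and *Tbcb* have 1 library far from the other 2.

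Genes of the contractile apparatus were lower in Plus A. Of 17 measured genes of the sarcomere, whose sliding myosin and actin filaments give contraction, 13 were at least 1.5-fold lower and 2 higher, with a median log2 ratio of -1.25 against -0.00017 over all members. Over all members 10.6% were lower and 7.74% higher. Of these 17, 4 reached the minimum through 1 group only, so that they had to differ, though not by 1.5-fold. The embryonic myosin *Myh3* had 225, 208 and 310 normalised counts in the Plus A libraries against 1486 in MC, a log2 ratio of -2.58. The fast myosin *Myh1* had 2415, 1896 and 1585 against 4679, and the embryonic light chain *Myl4* had 79.1, 88.8 and 88.8 against 329. The troponins *Tnni1*, *Tnni2*, *Tnnt1* and *Tnnc2* had log2 ratios of -1.86, -1.58, -1.30 and -1.01. The 2 higher genes were *Acta2*, the smooth muscle α-actin, at 0.66, and *Tpm2*, β-tropomyosin, at 0.61. Both were within 1.5-fold when the means were scaled to the same total.

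Scaffold and calcium handling genes of muscle showed lower values too. The shares over all members were 10.6% lower and 7.74% higher. Among 12 genes of the Z-disc and the sarcomere scaffold 5 were lower and 1 higher, with a median log2 ratio of -0.49, and 3 reached the minimum through 1 group only. *Xirp1*, an actin-binding repeat protein, had 186, 200 and 243 against 577, and the giant protein *Neb* had a log2 ratio of -1.11. *Des*, the intermediate filament of muscle, had 93.4, 54.7 and 55.9 against 157. The higher gene was *Lmod3*, a nucleator of thin filaments, with 1471, 2197 and 2183 against 1214. Of 12 genes of the sarcoplasmic reticulum 8 were lower and none higher, with a median of -0.92. Of these 12, 3 reached the minimum through 1 group only, and without replicate 1 the count of lower genes was 7. *Ryr1*, the calcium release channel of skeletal muscle, had 97.4, 117 and 141 against 448, and the calcium buffers *Hrc* and *Casq1* and the pump *Atp2a1* had log2 ratios of -1.65, -1.06 and -1.15. *Stac3*, needed for excitation-contraction coupling, was at -1.50. The cardiac forms *Casq2* and *Atp2a2* lay at -0.10 and 0.23.

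Among the regulators of the muscle programme, 3 of 12 were lower and none higher, beside 10.6% and 7.74% of all members. *Myog*, the factor that starts terminal differentiation, had 1308, 1052 and 973 against 4059, a log2 ratio of -1.87. *Mef2c*, its partner, was at -0.78. *Myod1*, which marks committed myoblasts, had 3738, 4134 and 3936 against 4351, a log2 ratio of -0.14. *Chrnd* and *Chrna1*, subunits of the muscle acetylcholine receptor, were at -2.53 and -1.76. They are not among the 12 regulators but among the 6 measured skeletal myoblast markers, of which 3 reached the minimum through 1 group only. *Chrnd* and *Chrna1* were among these 3, so that they had to differ, though not by 1.5-fold. None of 14 smooth muscle and serum response factor targets passed 1.5-fold, and their median was 0.20. *Cald1* at 0.51 passed it without replicate 1, and *Myh11* at -0.55 passed it in the other direction without replicate 1 and with equal totals.

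Genes of the cell cycle were lower as a group, but by less. All 25 genes of mitosis and all 26 of DNA replication had a negative log2 ratio, with medians of -0.50 and -0.60. Of these, 10 and 14 were at least 1.5-fold lower, beside 10.6% of all members. *Cep55*, which acts in the last cut between daughter cells, had 666, 564 and 595 against 1561, and *Cdca3*, an adaptor of mitotic entry, had 1033, 869 and 931 against 2202. *Cenpe*, a kinetochore motor, and *Mki67*, the proliferation marker, had log2 ratios of -0.88 and -0.79. Among the replication genes, *Fen1*, the flap endonuclease, had 522, 321 and 381 against 1228. *Mcm3*, *Mcm10* and *Mcm5*, of the replicative helicase and its loading, were at -1.11, -0.99 and -0.95. Plus A replicate 1 was the highest Plus A library in each of the genes given here. The count of mitosis genes past 1.5-fold was 15 without replicate 1 and 6 and 7 without replicates 2 and 3, and that of replication genes 17, 10 and 12.

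The genes that the study names were apoptosis-linked genes and *Tnnt2*, which it picked from these data. The study chose them for miR-125b, so their direction is not independent evidence. In 12 measured genes, 3 were lower (*Tnnt2*, *Bmf* and *Tp53inp1*) and 1 higher, with a median log2 ratio of -0.38, so without *Tnnt2* 2 of 11 were lower. The shares over all members were 10.6% lower and 7.74% higher. *Bmf*, a BH3-only killer protein, had 275, 308 and 243 against 586, or 2.13-fold lower. *Tp53inp1*, a p53-induced autophagy and death gene, had 338, 341 and 412 against 552, and its 1.52-fold ratio became 1.47-fold without replicate 1 or without replicate 2. *Bak1*, which opens the mitochondrial outer membrane, had 980, 1179 and 1205 against 1634, or 1.46-fold lower, and 1.51-fold without replicate 3. *Traf6*, a ubiquitin ligase of inflammatory signalling, had 199, 217 and 185 against 291, also 1.46-fold lower, and 1.52-fold without replicate 2. *Casp2*, an initiator caspase, was 1.44-fold lower. All Plus A libraries were below the MC mean in these 5 genes.

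The remaining ones lay closer to MC. *Tp53inp2*, *Dram2* and *Hif1an* had log2 ratios of -0.24, -0.17 and -0.07, and *Bcl2l11* (Bim) and *Bax* of 0.20 and 0.40. With equal totals 6 of the 12 genes were lower and none higher. *Klf13*, a transcription factor, had 158, 141 and 139 against 237, or 1.62-fold lower. *Tnfrsf1b*, a receptor of tumour necrosis factor, was under the minimum, with 20.3, 14.4 and 19.96 against 64.5, and *Bbc3* was not listed.

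Genes reported elsewhere as miR-125b targets were lower more often than higher. Of 19 measured, 8 were at least 1.5-fold lower and none higher, 16 had a negative log2 ratio, and the median was -0.45. Over all members 10.6% were lower. Of these 19, 2 reached the minimum through 1 group only, *Tnfaip3* among them, so that they had to differ, though not by 1.5-fold. *Lifr*, a receptor of the interleukin-6 family, had 356, 277 and 272 against 732. *Tnfaip3*, a brake on NF-κB, had 108, 82.6 and 88.8 against 225. *Erbb3*, a receptor of neuregulins, and *Sgpl1*, which cleaves sphingosine-1-phosphate, had log2 ratios of -1.08 and -0.88. *Ppp1ca*, *Ets1*, *Cbfb* and *Stat3* had log2 ratios of -0.73, -0.72, -0.71 and -0.60. Sites of the seed in these messengers were not searched.

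The p53 targets had a median log2 ratio of 0.28, with 5 of 20 higher and 2 lower, beside 7.74% and 10.6% of all members. *Sesn2*, which restrains mTORC1, had 6345, 6641 and 7083 against 1978, or 3.38-fold higher, and it also responds to the integrated stress response. *Gadd45a*, *Phlda3*, *Zmat3* and *Fas* were at 0.74, 0.73, 0.72 and 0.66. The lower genes were *Tp53inp1*, given above, and *Ei24*. *Ei24*, an endoplasmic reticulum protein of autophagy, had 1717, 880 and 944 against 2628, and stood among the genes in which replicate 1 was apart. *Cdkn1a* and *Mdm2* had log2 ratios of 0.54 and 0.41.

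Several genes of the integrated stress response were higher. In this response phosphorylation of eIF2α favours translation of the factor ATF4, which turns on amino acid synthesis and transport genes, *Ddit3* (CHOP) and *Trib3*. Of 24 measured genes of this response and of the unfolded protein response, 9 were at least 1.5-fold higher and 2 lower. Over all members 7.74% were higher and 10.6% lower. The median log2 ratio of the 24 was 0.21. Next to *Trib3*, *Slc7a5*, a carrier of large neutral amino acids, had 17257, 21771 and 22807 against 5752, or 3.58-fold higher. *Ddit3* had 2129, 2228 and 2088 against 632, or 3.40-fold higher. *Asns*, *Chac1*, *Phgdh* and *Psat1*, which make asparagine, degrade glutathione and make serine, had log2 ratios of 1.66, 1.61, 1.36 and 1.23, and *Atf4* was at 0.91. *Slc7a11*, the cystine carrier that also belongs to this response, was at -0.47 in normoxia and had a log2 fold change of -1.02 in hypoxia. The chaperones of the endoplasmic reticulum did not share this: *Hspa5*, *Hsp90b1* and *Calr* lay at 0.17, -0.08 and -0.03, and *Dnajb11* and *Pdia4* were lower at -0.68 and -0.65.

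The promoters of these genes were searched for TGATGNAA, the form of the C/EBP-ATF response element that ATF4 with a partner binds, after their values had been seen. Both strands were read in the 300 bases from 250 before to 50 after the RefSeq start. It occurred in 2 of 21 promoters matched for the list (9.52%), against 1048 of 27457 promoters of all genes (3.82%). Both belonged to genes that were higher, *Chac1* and *Trib3*, which were 2 of 9 promoters of higher genes (22.2%). For most of the higher genes no match to this form was thus found in these 300 bases, and sequence outside them was not searched. The windows show them 5′ to 3′ on the strand of the gene, with the element in capitals, here on the opposite strand.
Chac1: cttctccgccgTTGCATCActcctgctagg
Trib3: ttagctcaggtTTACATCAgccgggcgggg
In GRCr8 these are chr3:126795953-126795982 for *Chac1*, a gene on the plus strand, and chr3:161275536-161275565 for *Trib3*, on the minus strand. A match is a description of the letters and no binding was measured.

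Genes of sterol and fatty acid synthesis were the list with the most higher members. These enzymes build cholesterol from acetyl-CoA through mevalonate and squalene under the SREBP factors. Of 25 measured, 24 had a positive log2 ratio, 14 were at least 1.5-fold higher and 1 lower, with a median of 0.64. Over all members 7.74% were higher. With equal totals 10 of the 25 were higher, and 1 of the 25 reached the minimum through 1 group only. *Fdft1*, squalene synthase, had 2257, 2423 and 2808 against 823, or 3.03-fold higher. *Hmgcs1* and *Fdps*, early in the pathway, were at 1.32 and 1.31, and *Insig1*, the sterol sensor partner, at 1.11. Fatty acid synthase, *Fasn*, had 12149, 12747 and 12636 against 6742. The factors *Srebf1* and *Srebf2* lay at 0.53 and 0.16.

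Collagens and other matrix genes differed from MC in both directions. *Col1a1*, the α1 chain of type I collagen (chromosome 10, 82745801 to 82762789, plus strand, in the coordinates of the count tables), was the most abundant gene, with 784831, 732244 and 797253 against 397385, or 1.94-fold higher. It made up 2.61% of all normalised counts in Plus A and 1.41% in MC. In all 3 of 18 collagens were higher and 2 lower, with a median log2 ratio of 0.32, beside 7.74% higher and 10.6% lower among all members. The count of higher collagens was 5 without replicate 2 and 2 with equal totals. *Col11a1* was at 0.93, and *Col6a3*, with 2822, 1865 and 1887 against 5265, and *Col27a1* were lower at -1.26 and -0.70. Of 26 matrix proteins and enzymes, 5 were higher and 7 lower, and 3 and 8 with equal totals, beside the same shares of all members. Of these 26, 1 reached the minimum through 1 group only. *Postn*, periostin, had 13541, 12865 and 13838 against 41707, or 3.11-fold lower. *Tnc*, tenascin C, had 900, 850 and 904 against 3057, and *Lum*, lumican, had 129, 73.3 and 70.8 against 368. The protease *Mmp2* was at -1.33, and *Lox*, *Spp1* and *Fbln2* were higher at 0.68, 0.98 and 1.00.

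Signalling lists were mostly lower or close to MC. The shares over all members were 7.74% higher and 10.6% lower. Of 14 genes of the IGF system and imprinted growth genes, 4 were lower: *Igfbp5*, *Igf2bp2*, *Igf2r* and *Peg3*, at -1.04, -1.01, -0.90 and -0.74. *Igf2* had 29952, 31895 and 33390 against 43244. Among 13 interferon-stimulated genes, 5 were lower and none higher, with a median of -0.50, and 3 reached the minimum through 1 group only. They included *Ifih1* and *Ddx58*, sensors of double-stranded RNA, at -1.22 and -0.82, *Ifitm3* at -0.96 and *Gbp2* at -0.80. Of 7 measured chemokines and cytokines, 4 were lower: *Cxcl1*, *Il33*, *Cxcl16* and *Csf1*, at -1.08, -0.87, -0.86 and -0.71. In the 10 caveolae genes 3 were lower and 2 higher. *Sdpr* (cavin 2) and *Murc* (cavin 4) were at -0.95 and -0.85, and *Cav2* and *Pacsin3* at 0.99 and 0.80. The third lower gene was *Cav1*, whose ratio depended on the libraries used, as given above.

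Few HIF targets and no genes of the microRNA pathway passed 1.5-fold. Of 20 HIF targets 2 were higher and none lower, namely *Vegfa*, an angiogenic factor, with 7129, 7996 and 8913 against 4363, and *Slc2a1*, the glucose transporter GLUT1, with 789, 773 and 851 against 445. Their share is near the 7.74% of all members that were higher. The median was 0.11, and 0.032 with equal totals. None of 19 genes of microRNA processing and action passed 1.5-fold. *Dicer1*, which cuts precursors, was at 0.51, *Zcchc11*, which adds uridines to RNA ends, at -0.46, and *Ago2* at 0.23.

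**Figure D4:**
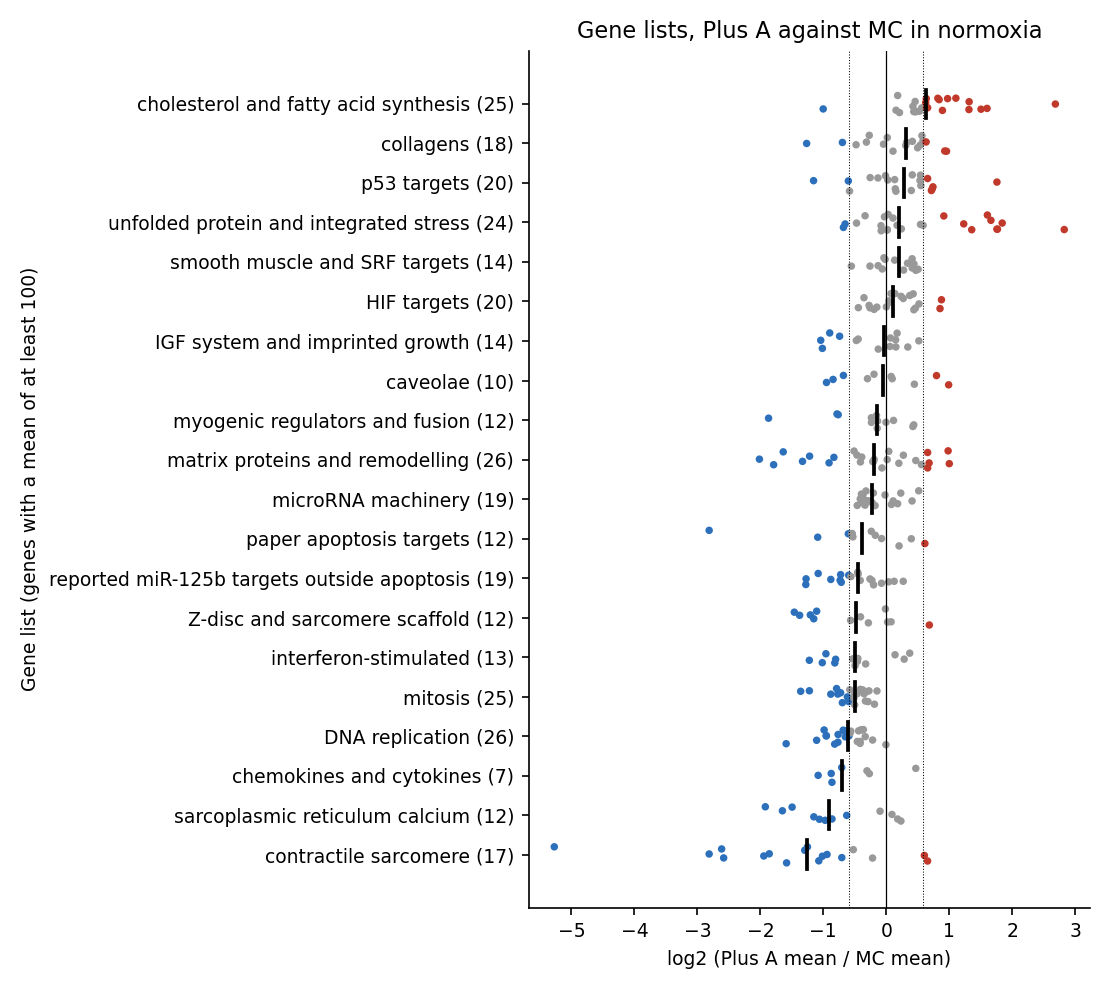
The log2 ratio of the Plus A mean to the MC mean in normoxia for the measured genes of 20 lists, with 1 point per gene and the number of genes in brackets. Red and blue points are past 1.5-fold, the black bar is the median of the list, and vertical scatter within a row carries no value; the contractile sarcomere has the lowest median, -1.25, and cholesterol and fatty acid synthesis the highest, 0.64.

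The same mimic was compared with MC in hypoxia, where counts of all 6 libraries allowed a test and no library is shared with the normoxia ratio. With edgeR's quasi-likelihood test, a Benjamini-Hochberg adjusted p below 0.05 and at least 1.5-fold, 1588 of 15159 tested genes (10.5%) rose and 2179 (14.4%) fell. Of the 869 genes higher in normoxia, 471 (54.2%) also rose in hypoxia, and they were 51.3% of the 918 members that rose there. Of the 1187 genes lower in normoxia, 805 (67.8%) also fell, 56.0% of the 1437 members that fell there. The direction in hypoxia was the same in 787 of 869 higher genes (90.6%), where 50.1% of all members had a positive value, and in 1139 of 1186 lower genes that were tested (96.0%), where 49.9% had a negative one. Across 11221 genes Pearson's r between the log2 ratio in normoxia and the log2 fold change in hypoxia was 0.752. Genes are not independent replicates.

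Muscle genes fell in hypoxia as well, where 14.4% of all tested genes fell and 10.5% rose. Of the 17 contractile genes 14 fell and 1 rose, with a median log2 fold change of -2.62. *Tnnt2* had 1429, 1354 and 1522 normalised counts in hypoxic Plus A and 8718, 9362 and 9069 in hypoxic MC, a log2 fold change of -2.66 ± 0.056 (SE; edgeR adjusted p = 1.1e-09). *Myh3* changed by -3.83 ± 0.080 (edgeR adjusted p = 1.1e-09) and *Myog* by -2.52 ± 0.046 (edgeR adjusted p = 5.4e-10). *Actc1* had 5.05, 30.3 and 18.4 against 982, 934 and 1028. *Postn* and *Tnc* fell by 2.02 and 2.04 on the log2 scale, and *Col1a1* rose by 0.64. No Plus A library overlapped with MC in these genes. *Nhp2* fell too, with 20.2, 28.3 and 29.1 against 1073, 540 and 273, where the MC libraries differed widely among themselves. Of the 12 genes with the largest reductions in normoxia 9 fell in hypoxia. The others were *Ankra2* with a log2 fold change of 1.31 (edgeR adjusted p = 0.11), *Brms1* with 0.26 (edgeR adjusted p = 0.68) and *Fam50a* with -1.37 (edgeR adjusted p = 0.10). Among the 12 with the largest increases, *Trib3* rose by 1.12 on the log2 scale, *Scd1* was at 0.03 and *Gzmbl3* fell. The rest of those 12 are not reported here for hypoxia.

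Stress genes rose in hypoxia too. *Trib3* had 13469, 14694 and 15418 in hypoxic Plus A and 6898, 6704 and 6451 in hypoxic MC, a log2 fold change of 1.12 ± 0.055 (SE; edgeR adjusted p = 1.5e-07), beside a log2 ratio of 2.83 in normoxia. *Ddit3* rose by 1.34 ± 0.051 (edgeR adjusted p = 3.2e-08). Of the 24 genes 10 rose and 1 fell, beside 10.5% and 14.4% of all tested genes. Among the 9 that were higher in normoxia, 6 rose. *Hspa5* rose by 0.67, whereas its log2 ratio in normoxia was 0.17. Levels set side by side between normoxia and hypoxia come from separate normalisations.

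Sterol and mitosis genes had medians near 0 in hypoxia. Beside the counts below, 10.5% of all tested genes rose there and 14.4% fell. Of the 25 sterol and fatty acid genes 1 rose (*Acaca*) and 2 fell, among them *Dhcr7*, with a median log2 fold change of -0.0088, beside 0.64 in normoxia. *Hmgcs1* had 2563, 2454 and 2474 in hypoxic Plus A and 2526, 2518 and 2480 in hypoxic MC (log2 fold change -0.01 ± 0.044, edgeR adjusted p = 0.88). *Scd1* had 16.2, 21.2 and 38.8 against 22.5, 29.8 and 22.2. Of the 25 mitosis genes 3 rose and 2 fell, with a median of 0.019, beside -0.50 in normoxia. *Birc5*, which blocks caspases and acts in mitosis, had 448, 518 and 538 against 252, 220 and 237 in hypoxia (1.08 ± 0.10, edgeR adjusted p = 1.2e-05). In normoxia it had 1269, 956 and 910 against 1354. Of the 26 replication genes 9 fell and none rose, with a median of -0.38, beside -0.60 in normoxia. Of the 20 HIF targets 8 fell in hypoxia and none rose, and *Slc2a1* had a log2 fold change of -0.53 ± 0.050 (edgeR adjusted p = 1.2e-05), which is under 1.5-fold. The differences between normoxia and hypoxia were not tested, since MC in normoxia has no libraries of its own here.

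Of the genes that the study names, *Tnnt2* included, 5 of 12 fell in hypoxia and 1 rose, beside 14.4% and 10.5% of all tested genes. *Bmf* fell by 1.55 ± 0.095 (edgeR adjusted p = 6.0e-07) and *Bak1* by 0.65 ± 0.071 (edgeR adjusted p = 2.8e-05). Of the 19 other reported targets 9 fell and none rose, and 7 of these 9 were among the 8 that were lower in normoxia.

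**Figure D5:**
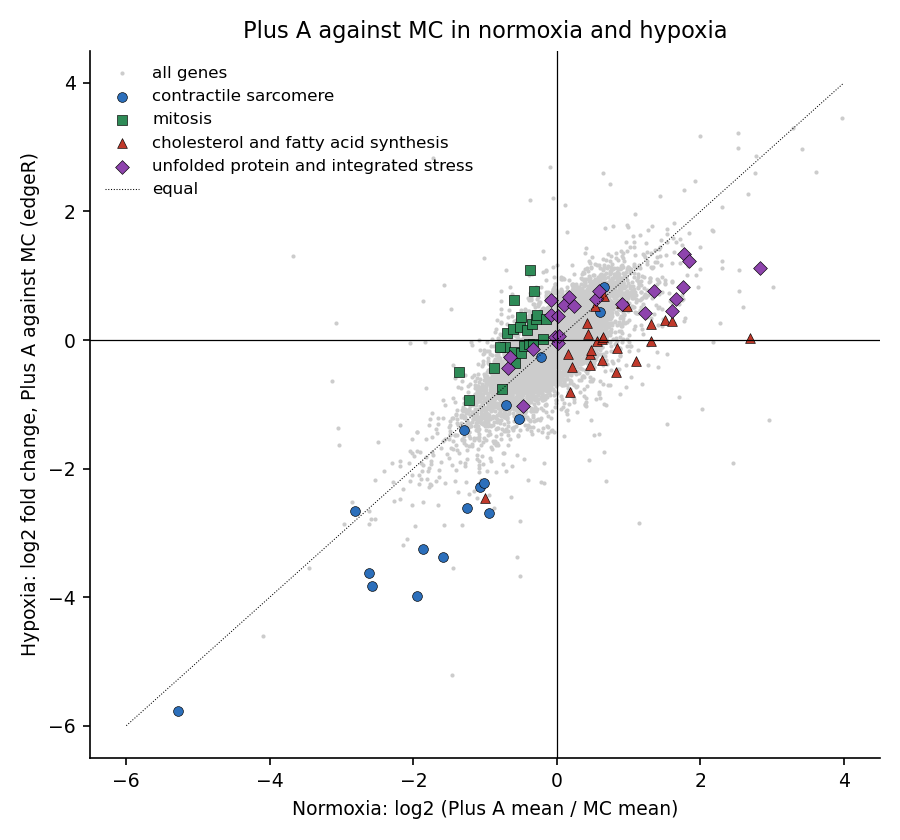
The log2 ratio of Plus A to MC in normoxia against the log2 fold change of Plus A over MC in hypoxia for 11221 genes (grey), with 4 gene lists in colour; the dotted line marks equal values. Contractile genes lie low on both axes, whereas most cholesterol genes lie right of 0 and near 0 on the hypoxia axis, and mitosis genes lie left of 0 and around 0.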

How the data were processed

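Poly-A RNA of H9C2 cells was sequenced without strand information, with 3 libraries per group. HISAT2 and StringTie are listed in the submitters' processing notes, without version. The genome build is not given in the sources used here. For Plus A against MC in normoxia the authors deposited group means of normalised counts, which form an expression signal with no value per library. The deposited Plus A mean equalled a weighted sum of the raw counts of its 3 libraries in another deposited table, for 17867 of 17867 genes tested within a tolerance of 1e-06, and the weights put each Plus A library on the scale of both means. Size factors were 0.985487, 0.96901 and 1.002128. All 11222 members were matched to a gene identifier by name and mean, and 23 names turned into dates by a spreadsheet were matched by mean alone. Libraries of miR-125b were put on this scale by their median ratio to Plus A. The authors' own fold changes, p-values and FPKM columns were not used. Replicate values of MC in normoxia were not reconstructed.

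For hypoxia, deposited raw counts were tested with edgeR 4.0.16 in R 4.3.3 (TMM, filterByExpr, quasi-likelihood test). DESeq2 1.42.0 was an alternative. This fit was first run on simulated counts with known changes. Normalised counts in hypoxia were divided by median-of-ratio size factors. p-values measure the spread between libraries, which may be technical.

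The members and lists were chosen with earlier results of these data known. Named genes were those the study names, the 12 per direction with the largest ratio among genes with a settled name and all Plus A libraries on 1 side of MC, up to 4 per list with the largest ratio, *Cav1*, and genes that were opposite in hypoxia. Genes that were added for a count or a contrast, such as *Birc5*, *Igf2*, *Hspa5* and *Cdkn1a*, and the 10 genes plotted for replicate 1 were chosen after their values were seen. Where genes overlap, lie antisense or have near-identical copies, their reads could not be told apart. Alternatives varied the minimum (50, 200, none, both groups), the fold (2 and a lower one), the scaling, a pseudocount of 10 and single replicates. Some genes of the lists are counted but not reported here by name.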

Additional observations from a re-analysis of the deposited data

Results flagged for a closer look

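For 11 named genes all 3 Plus A libraries lay on 1 side of the MC mean in normoxia, at 1.5-fold or more, while the test in hypoxia called the opposite direction with no overlap between the libraries. The difference between the settings was not tested. A further 3 such genes have no settled name. Lower in normoxia were *Qk*, an RNA-binding splicing factor (log2 ratio -0.78), *Phf19*, of the Polycomb complex (-0.62), and *Cdca8*, of the chromosomal passenger complex (-0.59). Their log2 fold changes in hypoxia were 0.76, 0.72 and 0.62. *Cdca8* had 1415, 1201 and 1159 normalised counts against 1899 in normoxia, and 607, 582 and 719 against 393, 459 and 385 in hypoxia.

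Higher in normoxia were *Gzmbl3* (2.96), *Smoc1*, a matrix calcium-binding protein (0.96), *Lmod3* (0.68), *Mrpl1*, a mitochondrial ribosomal protein (0.68), *Eln*, elastin (0.66), *Foxc2*, a forkhead factor (0.64), *Ptprb*, a receptor phosphatase (0.60), and *Tpi1*, triose phosphate isomerase (0.59). Their log2 fold changes in hypoxia were -1.25, -0.73, -2.19, -1.02, -0.99, -0.69, -0.64 and -0.83. *Lmod3* had 177, 155 and 154 normalised counts in hypoxic Plus A against 697, 751 and 770 in hypoxic MC. *Gzmbl3* had 23.2, 33.3 and 30.1 against 86.0, 74.6 and 45.4.

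The ratios of 6 of these genes in normoxia went under 1.5-fold when 1 Plus A library was left out. *Eln* came to 0.37 and *Tpi1* to 0.47 without replicate 1, *Phf19* to -0.45 and *Mrpl1* to 0.52 without replicate 2, *Foxc2* to 0.58 without replicate 3, and *Cdca8* to -0.56 and -0.54 without replicates 2 and 3.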

How the results depend on the processing

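The count of members higher and lower in normoxia was 3289 and 3013 with no minimum mean, 221 and 357 at a fold of 2, 2307 and 2579 at a lower fold, and 540 and 775 when each Plus A library had to pass. Leaving out 1 Plus A library gave 830 to 976 higher and 1106 to 1378 lower. The cause was not tested. In hypoxia the calls were 655 rose and 1014 fell at a fold of 2, and 4242 and 4341 with no fold threshold. With the replicate number as a replicate block they were 1558 and 2159, beside 1588 and 2179 without it, and same-numbered libraries did not deviate together (correlations of -0.0219, -0.0184 and -0.0182), so no pairing was assumed. The counts of mitosis genes lower ran from 6 to 15 and of collagens higher from 4 to 5 over the left-out libraries, alternatives chosen after seeing the data, as was adding the second block. Depth limits genes such as *Actc1*, and the absent spread of MC in normoxia limits all ratios.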
